A study of Mus musculus with 6 samples.

Results

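Mitochondria carry their own ribosomes, the mitoribosomes, which translate the few proteins encoded by mitochondrial DNA, most of them core subunits of the respiratory chain and of ATP synthase. The ribosomal RNAs of a mitoribosome are made inside the organelle. Its proteins are encoded by nuclear genes, made in the cytosol and imported, so nuclear and mitochondrial gene expression have to meet in 1 particle. Most of these genes carry symbols that start with Mrpl (large subunit) or Mrps (small subunit), and the proteins divide into those with a counterpart in bacterial ribosomes and those specific to mitochondria.

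The genes described here are all those whose annotated symbol is Mrpl or Mrps followed by digits. The RefSeq gene table lists 78 protein-coding genes of that form, and 76 of them had a probe set (a group of probes for 1 transcript) annotated with that symbol alone, among 18193 genes in all. Mrpl30 and Mrpl53 occurred only on probe sets that name several genes and were not analysed here. The 76 genes had 156 probe sets, and each gene is represented by the probe set with the highest mean over all arrays. The members were chosen by name, not by their values.

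The arrays compared 2 stages of the B cell lineage in C57BL/6 mice. Plasma cells, which secrete antibody, were sorted from bone marrow as B220 negative and CD138 positive in 3 samples, 7 days after mice were boosted with the protein antigen KLH and after a magnetic enrichment for CD138, with 50000 to 70000 cells per array. B cells were sorted from spleen as B220 positive and CD23 positive, the phenotype of naive follicular cells, in 3 samples with 2000000 to 3000000 cells per array. The tissue, the boost, the bead enrichment and the amount of input went with the cell type, and their effects cannot be told apart from it.

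Values are the authors' normalized intensities on a linear scale, whose upper quartile lay between 625 and 684 on the 6 arrays. All 10 plasma cell marker genes were called higher in plasma cells and all 9 measured B cell marker genes were called lower, with Cd79a and Cd79b the least so and no longer called without any 1 array other than B cell array 1. B cell array 1 stood apart from the other arrays of its group, with a correlation over all genes of 0.934 and 0.926 with B cell arrays 2 and 3, which reached 0.992 with each other. On it, 13 of 14 measured markers of T and NK cells were above both other B cell arrays, and the summed level of that list was 12078 against 7698 and 7945, with 2116 to 3661 on the plasma cell arrays. Cd2 alone read 4717, 6953 and 7154 on the B cell arrays. A sum without it, chosen after its values were seen, was 7361 on B cell array 1, 744 and 791 on the other B cell arrays and 1495 to 2920 on the plasma cell arrays, so that array 1 held far more of the other T and NK cell markers. Within that list Cd4 was called higher in plasma cells, at 311, 393 and 459 against 23.8, 13.3 and 14.3, and Cd2 was called lower. The 13 measured granulocyte markers summed to 13215 on B cell array 1, 2067 to 3102 on the other B cell arrays and 8659 to 20328 on the plasma cell arrays. The sex-linked gene Xist read 8408 on B cell array 1 and 8070.4 to 8702 on the plasma cell arrays but 30.8 and 18.1 on B cell arrays 2 and 3, where the Y-linked Kdm5d read 1507 and 1576, so without B cell array 1 sex cannot be told apart from the cell type. The part of other cells and of sex in the results below was not tested, and counts are also given without B cell array 1, and without another array where that moved them.

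About 4 in 10 genes for mitoribosomal proteins were higher in plasma cells than in B cells, most of them by less than 2-fold, and 1 was lower. In limma's test with Benjamini-Hochberg adjustment over all 18193 genes at an adjusted p of at most 0.05, 31 of the 76 members were called higher and 44 were not called. In the same comparison 17.6% of all genes were called higher and 12.3% lower. The members' median log2 fold change was 0.33, with a middle range from 0.02 to 0.72 and extremes of -0.62 and 1.70, beside a median of -0.06 over all genes. A fold change here is on the scale of log2(intensity + 16), and in sorted samples of many cells more RNA per cell and a larger share of cells with that RNA cannot be told apart. The 9 members that reached 2-fold were Mrpl54, Mrps28, Mrpl57, Mrpl17, Mrps34, Mrpl13, Mrps12, Mrpl20 and Mrpl27.

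The arrays of the groups did not overlap for most members. All 3 plasma cell arrays lay above all 3 B cell arrays for 45 members, an order that 25.4% of all genes showed. The reverse order held for 4 members, Mrpl49, Mrpl32, Mrps22 and Mrpl45, against 22.4% of all genes, and 27 members overlapped. All 76 members were above the array's background level on all 6 arrays. Among genes above background on at least 3 arrays, 24.6% were called higher and 18.2% lower, and 32 members were called higher when only those genes were tested.

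B cell array 1 was low for this family, and not for this family alone. It lay below both other B cell arrays for 64 of the 76 members, and its median difference from their mean was -0.29 on the log2 scale, where all genes had -0.01. It was also below both for 71 of 82 nuclear genes of the respiratory chain (median -0.35) and 33 of 40 cytosolic ribosomal protein genes (-0.17). The median intensity of all its probe sets was 130, beside 88.1 and 86.7 on B cell arrays 2 and 3. Its background level was 40.6, beside 23.0 and 25.2. Without B cell array 1, 34 members were called higher, among them all 31 of the main count, and 7 were called lower. Of all genes 22.7% were then called higher and 21.1% lower. The members' median log2 fold change was then 0.21, beside 0.01 over all genes. Added to those called higher were Mrps25, Mrps11 and Mrps18b, and Mrps25 had the clearest gap, with 680.3, 1514 and 1473 on the B cell arrays and 1959, 1878 and 1867 on the plasma cell arrays. The share of members called higher was above that of all genes with and without the array, while the size of the median shift and the number of members called lower depended on it. With plasma cell array 2, plasma cell array 1 or B cell array 3 left out instead, 17, 18 and 20 members were called higher, beside 12.7%, 12.2% and 14.2% of all genes, and 0 were called lower by limma.

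**Figure D1:**
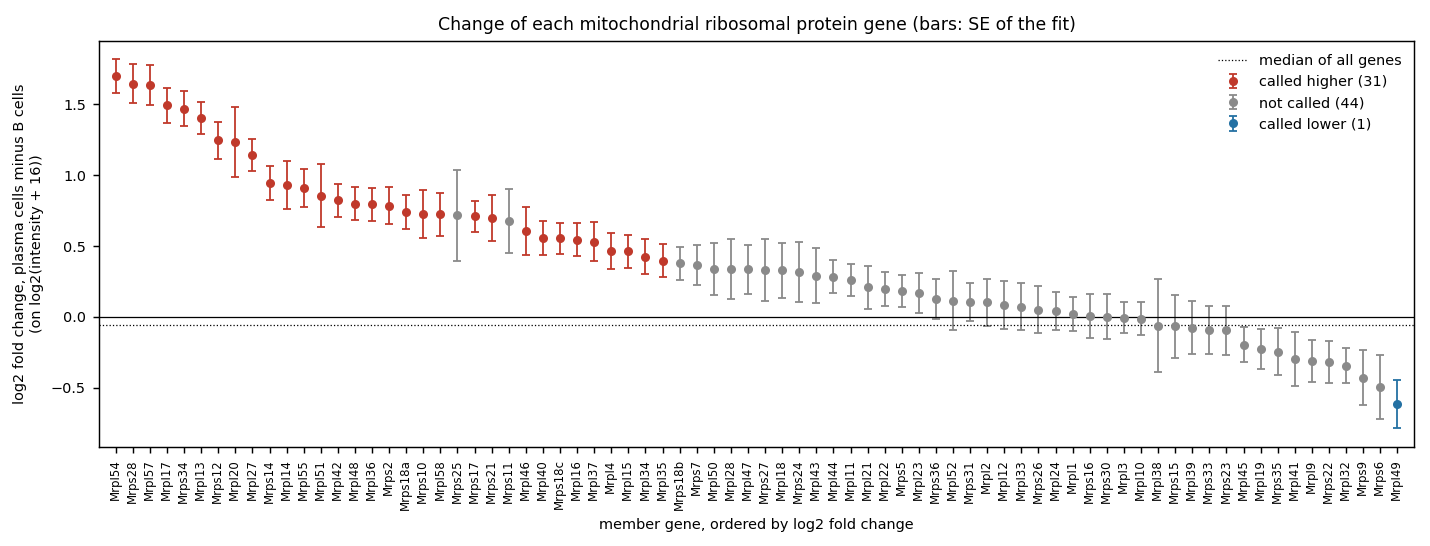
Log2 fold change of each of the 76 mitochondrial ribosomal protein genes, plasma cells minus B cells, with bars for the standard error of the fit over 3 and 3 arrays; genes are ordered by their change. The 31 genes called higher run from 1.70 down to 0.40, the 44 that were not called run from 0.72 for Mrps25 down to -0.50 for Mrps6, and Mrpl49 at -0.62 is the gene called lower.

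Promoter sequence was examined as a property that the choice of members did not use. Genes for mitochondrial proteins are known for short promoter elements bound by ETS family factors such as GABP, by NRF1 and by YY1. RefSeq promoter windows of assembly GRCm38.p6, each 300 bases long from 250 bases before the transcription start to 50 after it, were matched for 67 of the 76 members and for 17492 protein-coding genes. A gene was counted when any of its windows held the letters on either strand. The ETS letters CCGGAAG occurred in 25 members, or 37.3%, against 12.9% of all protein-coding genes and 21.8% of the 8412 with a window that were above background on all 6 arrays. The NRF1 letters GCATGCGC occurred in 8 members, or 11.9%, against 3.94% of all and 6.34% of the genes above background, and the YY1 letters AAGATGGCG likewise in 8 members, against 2.14% and 3.93%. The letters GGGCGG, bound by SP factors, were found in 50.7% of members and 49.2% of all protein-coding genes, but in 69.0% of the genes above background. The E-box letters CACGTG, bound among others by Myc, were found in 7.46% of members, 8.91% of all genes and 12.1% of the genes above background. The NRF1 letters can overlap their own reverse complement, and the ETS letters end in the 3 bases with which the YY1 letters begin, so that 1 stretch can hold both.

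At least 1 of the ETS, NRF1 and YY1 letters stood in 35 of 67 members, or 52.2%, against 17.6% of all protein-coding genes, 29.3% of those above background and 38.8% of the nuclear genes of the respiratory chain. These motifs were found both in members called higher and in the others: 15 of 25 called higher and 20 of 42 not called higher held 1 of them. Of the members with the NRF1 letters, 1 was called higher (Mrpl17) and 7 were not. The following 150 bases before the start are shown for 6 members, chosen after their values were seen because the same letters stand upstream of genes with different changes. Capitals mark the ETS, NRF1 and YY1 letters matched, in either orientation. Matches to the SP and E-box letters are left in lower case.

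Mrpl17, called higher (NRF1 letters, chr7:105811088-105811237 on the minus strand), Mrpl27, called higher (ETS letters, chr11:94653641-94653790 on the plus strand), Mrpl36, called higher (YY1 letters, chr13:73330859-73331008 on the plus strand), Mrpl22, not called (ETS and NRF1 letters, chr11:58171514-58171663 on the plus strand), Mrpl32, not called (NRF1 letters, chr13:14613038-14613187 on the minus strand) and Mrps22, not called (ETS letters, chr9:98601680-98601829 on the minus strand), all in GRCm38.p6 and read 5′ to 3′ toward the gene:
Mrpl17: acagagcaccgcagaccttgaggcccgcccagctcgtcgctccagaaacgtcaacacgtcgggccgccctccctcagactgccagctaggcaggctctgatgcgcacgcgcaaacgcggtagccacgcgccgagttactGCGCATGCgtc
Mrpl27: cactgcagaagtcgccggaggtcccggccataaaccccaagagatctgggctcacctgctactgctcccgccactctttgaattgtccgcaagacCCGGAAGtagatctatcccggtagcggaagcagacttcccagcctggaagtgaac
Mrpl36: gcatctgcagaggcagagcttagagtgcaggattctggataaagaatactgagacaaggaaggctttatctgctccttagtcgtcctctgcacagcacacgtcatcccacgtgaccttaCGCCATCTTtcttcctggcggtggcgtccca
Mrpl22: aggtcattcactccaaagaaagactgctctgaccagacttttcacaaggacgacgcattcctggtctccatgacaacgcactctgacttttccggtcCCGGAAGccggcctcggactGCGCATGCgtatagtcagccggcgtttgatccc
Mrpl32: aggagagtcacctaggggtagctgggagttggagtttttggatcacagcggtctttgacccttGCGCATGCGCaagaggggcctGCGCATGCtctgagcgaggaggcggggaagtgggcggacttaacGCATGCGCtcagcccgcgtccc
Mrps22: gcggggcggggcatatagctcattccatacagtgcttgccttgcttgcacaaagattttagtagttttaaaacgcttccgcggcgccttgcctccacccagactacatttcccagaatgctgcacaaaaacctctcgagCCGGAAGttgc

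In Mrpl17 the NRF1 letters begin 11 bases before the start, and the gene had a log2 fold change of 1.49. Mrpl32 holds 4 matches to the NRF1 letters within the printed stretch, the first pair overlapping, and had -0.34. The ETS letters lie 55 bases before the start of Mrpl27, which had 1.14, and 11 bases before that of Mrps22, which had -0.32. A match is a run of letters and was not tested for binding.

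**Figure D2:**
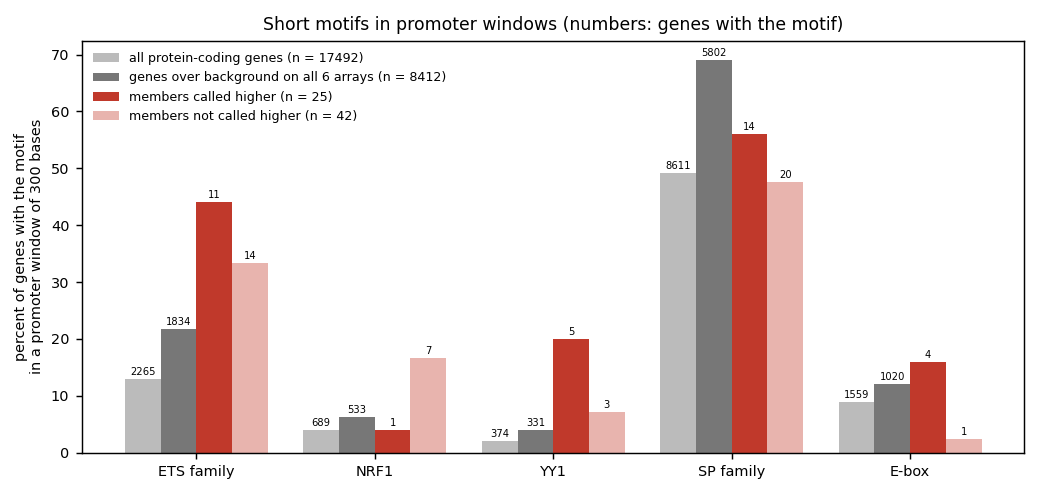
Percent of genes whose promoter window of 300 bases holds each motif, for all protein-coding genes, genes above background on all 6 arrays, members called higher and members not called higher; numbers above the bars count the genes with the motif. The ETS letters stand in 11 of 25 members called higher and 14 of 42 others, and the NRF1 letters in 1 and 7.

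Many members start close to another gene. A look added after the data were seen counted promoter windows that overlap the window of a protein-coding gene on the opposite strand, as in a shared or divergent promoter. This held for 21 of 67 members, or 31.3%, against 7.72% of all protein-coding genes, 13.2% of the genes above background and 28.4% of the nuclear genes of the respiratory chain. Mrpl46 and Mrps11 share such a window with each other. Of the 21 members, 9 were called higher, where 31 of all 76 members were. Of their 21 partners 3 (Eme1, Ska3 and Mrpl46) were called higher and 18 were not called, where 17.6% of all genes were called higher. Both genes of the pair were called higher for Mrpl27 with Eme1, a subunit of a DNA endonuclease, and for Mrpl57 with Ska3, a kinetochore protein. The partners' log2 fold changes were 2.14 for Eme1 and 1.15 for Ska3. Some partners serve mitochondria themselves, among them Sars2, a mitochondrial transfer RNA synthetase beside Mrps12, Twnk, the mitochondrial DNA helicase beside Mrpl43, and Ndufb5, a complex I subunit beside Mrpl47. Their log2 fold changes were 0.28, 0.14 and 0.36, and none of the 3 was called.

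Among proteins of the large subunit, 22 of 49 members were called higher and 1 lower, with a median log2 fold change of 0.34. In that fit 17.6% of all genes were called higher and 12.3% lower. The 49 include Mrps18a and Mrps30, which carry small-subunit symbols but sit in the large subunit. Of the 29 with a bacterial counterpart 12 were called higher, and of the 19 specific to mitochondria 9 were called higher and 1 lower. Without B cell array 1, 22 of the 49 were called higher and 4 lower, with a median of 0.17, and the classes had 12 higher and 1 lower and 9 higher and 3 lower. Of all genes 22.7% were then called higher and 21.1% lower. Without plasma cell array 2, 11 of the 49 were called higher, without plasma cell array 1 12, and without B cell array 3 or plasma cell array 3 13 each. In these fits 12.2% to 14.2% of all genes were called higher.

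Mrpl54, a protein specific to mitochondria, had the highest change of the family, with intensities of 1207, 1304 and 1223 on the plasma cell arrays and 397, 346 and 373 on the B cell arrays. The plasma cell mean was 1245 ± 52.0 (SD, n = 3) and the B cell mean 372 ± 25.8 (SD, n = 3), a log2 fold change of 1.70 ± 0.12 (SE) with a limma adjusted p of 0.000247. All plasma cell values lay far above all B cell values, and B cell array 1 was the highest of its group here, unlike for most members. Mrpl57, also specific to mitochondria, read 5806, 6062 and 6009 in plasma cells and 1672, 2220.1 and 1865 in B cells, with a log2 fold change of 1.64 ± 0.14 (SE, limma adjusted p 0.000571).

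Of the 9 members raised at least 2-fold, 4 were large-subunit proteins with a bacterial counterpart: Mrpl17, Mrpl13, Mrpl27 and Mrpl20. Mrpl17, whose bacterial counterpart lies near the exit of the peptide tunnel, had values of 4111, 3830.3 and 3639 against 1377, 1271 and 1439, a log2 fold change of 1.49 ± 0.12 (SE, limma adjusted p 0.000419). Mrpl13, the counterpart of an early-binding protein of large-subunit assembly, had 5662, 5928 and 5684 against 2165, 2282 and 2053, a log2 fold change of 1.40 ± 0.11 (SE, limma adjusted p 0.0004). In both genes the spread within a group was small beside the gap between the groups. Mrpl27, whose bacterial counterpart reaches the peptidyl transferase centre, had 1169, 1279 and 1286 against 531, 580.3 and 556, a log2 fold change of 1.14 ± 0.11 (SE, limma adjusted p 0.00093).

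Mrpl20, the counterpart of a protein needed for assembly of the bacterial large subunit, had a low value on B cell array 1. Its B cell intensities were 750.3, 1348 and 1300.4, and its plasma cell intensities were 2517, 2749 and 2542. The log2 fold change was 1.23 ± 0.25 (SE, limma adjusted p 0.0128) with all arrays and 0.97 without B cell array 1, and the groups did not overlap in either case. The call was lost without plasma cell array 2. Mrpl51, specific to mitochondria, had the same pattern, with 3832, 6496 and 5997 in B cells and 9700.4, 9754 and 9396 in plasma cells. Its log2 fold change of 0.86 ± 0.22 (SE, limma adjusted p 0.032) was 0.62 without that array. The call was lost without B cell array 3 (adjusted p 0.0594 by limma) or any 1 plasma cell array (0.0882 to 0.102) and after median centring of the arrays (0.0778). Mrpl51 was chosen after its values were seen.

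Proteins of the stalk, the arm of the large subunit that recruits translation factors, were not called on the probe sets used. Mrpl12, the counterpart of the bacterial protein that contacts the factors directly, had 1580.4, 1501 and 1807 in plasma cells and 1261, 1674 and 1706 in B cells, a log2 fold change of 0.08 ± 0.17 (SE). Mrpl10, which anchors Mrpl12, had 666, 584 and 629 against 612, 619 and 664, a log2 fold change of -0.01 ± 0.12 (SE). The groups overlapped for both genes. Mrpl11, at the base of the stalk, had 0.26 ± 0.11 (SE, limma adjusted p 0.146), with all plasma cell arrays above all B cell arrays, and 1 of its other probe sets was called higher at 0.50. Mrpl1, on the arm at the exit side for transfer RNA, had 0.02 ± 0.12 (SE).

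Other large-subunit proteins with known special roles moved to different degrees. Mrpl58, which as a free protein can release peptides from stalled mitoribosomes, had 1949, 2057 and 2081 against 1018, 1349.5 and 1327, a log2 fold change of 0.72 ± 0.15 (SE, limma adjusted p 0.0151). That call was lost without any 1 plasma cell array (limma adjusted p 0.0552 to 0.0631), after median centring (0.0745), and with the mean of its probe sets, where the change was 0.17 (0.495). Mrpl44, which has the fold of an RNase III enzyme, had 0.28 ± 0.12 (SE, limma adjusted p 0.13) and Mrps30 had 0.00 ± 0.16 (SE), and neither was called. Another probe set of Mrpl44 was called higher at 0.48 (limma adjusted p 0.0371), as was the gene with the mean of its probe sets. Mrpl45, which lies at the tunnel exit and ties the particle to the inner membrane, had 355, 398 and 395 against 399, 473 and 449.6. All its plasma cell arrays were below all its B cell arrays, yet the log2 fold change of -0.19 ± 0.13 (SE) did not pass the test at a limma adjusted p of 0.307.

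Mrpl49, specific to mitochondria, was the 1 member called lower. Its intensities were 431, 487 and 550.1 on the plasma cell arrays and 635, 871 and 778 on the B cell arrays, and the groups did not overlap. The log2 fold change was -0.62 ± 0.17 (SE) with a limma adjusted p of 0.0402, close to the threshold. It was -0.74 with an adjusted p of 0.0102 without B cell array 1, whereas leaving out any 1 of the other arrays ended the call. The call was also lost with a constant of 1, quantile normalization, median centring, the mean over probe sets and a replicate block. A second probe set of Mrpl49 had a log2 fold change of -0.05 and was not called.

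Among proteins of the small subunit, 9 of 26 members were called higher and 0 lower by limma (0 lower also at an unadjusted p under 0.05), with a median log2 fold change of 0.35. The shares of all genes were 17.6% and 12.3%. Without B cell array 1 the counts were 12 and 3, beside 22.7% and 21.1% of all genes. Without plasma cell array 1 or 2 they were 6 and 0, beside 12.2% or 12.7% of all genes called higher and 7.40% or 7.52% lower. The 16 with a bacterial counterpart included 8 called higher and had a median of 0.61, whereas the 9 specific to mitochondria included 1, Mrps34, and had a median of 0.05. The difference between these classes was not tested. Without B cell array 1 the medians were 0.50 and -0.09. With the mean over probe sets they were 0.28 and -0.02, with 5 and 1 called higher, beside 16.5% of all genes.

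Mrps28, named for the small subunit and a counterpart of a bacterial protein that binds messenger RNA, had the second highest change of the family. Its values were 5816, 5942 and 5678 in plasma cells and 1598, 2026 and 1947 in B cells, a log2 fold change of 1.64 ± 0.14 (SE, limma adjusted p 0.000461). Mrps34, known to be needed for a stable small subunit, had 4039, 3993 and 3785 against 1301, 1411 and 1529, a log2 fold change of 1.47 ± 0.12 (SE, limma adjusted p 0.000443). The plasma cell arrays of both genes lay well above their B cell arrays. Mrps12, the counterpart of a protein at the decoding centre, had 3418, 3718 and 3484 against 1315, 1522 and 1627, a log2 fold change of 1.25 ± 0.13 (SE, limma adjusted p 0.00111). Mrps14, in the head of the particle, had 1974, 1983 and 2089 against 961, 1122 and 1037, a log2 fold change of 0.95 ± 0.12 (SE, limma adjusted p 0.00214).

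The 3 genes related to bacterial S18 are paralogs with different seats in the mitoribosome. Mrps18a, which sits in the large subunit, had 1838, 1777 and 1920.4 against 1134, 1157 and 1004, a log2 fold change of 0.74 ± 0.12 (SE, limma adjusted p 0.00564). Mrps18c, in the small subunit at the place of the bacterial protein, had 3261, 3297 and 3239.9 against 2184, 2186 and 2292, a log2 fold change of 0.55 ± 0.11 (SE, limma adjusted p 0.0111). Mrps18b had 4107, 4128 and 3723 against 2939, 3082 and 3163, a log2 fold change of 0.38 ± 0.11 (SE), and missed the threshold at a limma adjusted p of 0.0543. The call of Mrps18c was lost without plasma cell array 1 or 2. All 3 had every plasma cell array above every B cell array. Mrps36, since assigned to the oxoglutarate dehydrogenase complex rather than to the mitoribosome, had 0.13 ± 0.14 (SE) and overlapping groups.

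The small-subunit members with the lowest changes did not pass the test. Mrps6, whose bacterial counterpart pairs with S18, had 496, 520.3 and 723 in plasma cells and 630.3, 961 and 884 in B cells, a log2 fold change of -0.50 ± 0.23 (SE, limma adjusted p 0.164). Mrps9, whose tail in bacteria reaches the transfer RNA, had 1175, 1130.2 and 1564 against 1447, 1766 and 1999.8, a log2 fold change of -0.43 ± 0.19 (SE, limma adjusted p 0.158). In both genes plasma cell array 3 was above the other plasma cell arrays and B cell array 1 below the other B cell arrays, and the groups overlapped there. Mrps22, specific to mitochondria, had 695, 578 and 766 against 789, 881 and 871 without overlap, a log2 fold change of -0.32 ± 0.15 (SE, limma adjusted p 0.167), and Mrps35 had -0.25. The large-subunit members at this end were Mrpl32 at -0.34, Mrpl9 at -0.31, Mrpl41 at -0.30 and Mrpl19 at -0.23, none of them called in the main fit with all 6 arrays. After quantile normalization Mrpl32 was called lower, and Mrpl49 was not. Without B cell array 1, Mrps6, Mrps35, Mrpl32, Mrpl41, Mrpl38 and Mrps15 joined Mrpl49 as called lower, with log2 fold changes from -0.30 to -0.74.

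**Figure D3:**
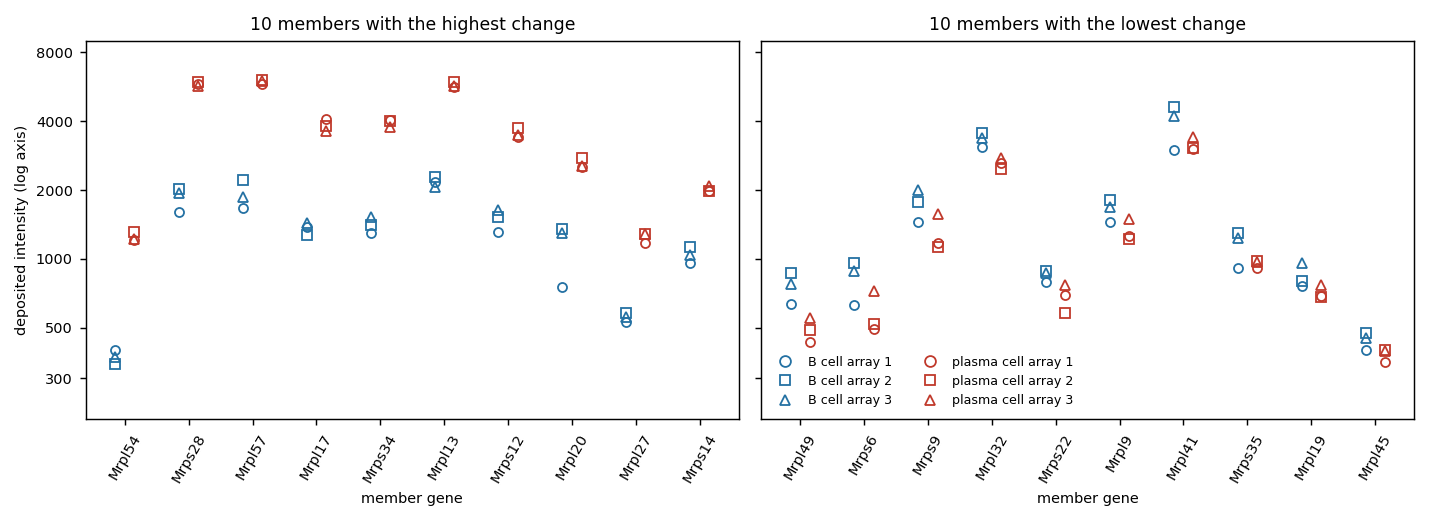
Deposited intensity on a log axis for the 10 members at either end of the ranking by log2 fold change; blue symbols are the 3 B cell arrays and red symbols the 3 plasma cell arrays, with circles, squares and triangles for arrays 1, 2 and 3. In the left panel all plasma cell values of a gene lie above its B cell values, and in the right panel several pairs of groups overlap, with B cell array 1 often the lowest of its group.

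Other probe sets of the same genes gave a more mixed picture. Of the 76 members 42 had several probe sets, up to 8, and 80 probe sets were not used for the counts above. In a limma fit over all 45037 probe sets that were no controls, in which 13.4% were called higher and 12.8% lower, 8 of the 80 were called higher, 4 lower and 68 were not called. Of the 16 members with several probe sets that were called higher in the fit over genes, 2 had all probe sets called higher in this fit. For 4 of the 16, 1 probe set was called lower. The probe sets used for Mrpl34 and Mrpl35 were not called in this fit (limma adjusted p 0.0605 and 0.0658). Of the 80, 64 were above background on all 6 arrays.

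Mrpl13 had 3 of its 4 probe sets called higher. The others that were called gave log2 fold changes of 1.25 and 1.18 beside 1.40 for the one used. The 4 members with opposite calls were Mrpl48, Mrps10, Mrps14 and Mrps21. The probe set of Mrps21 called lower read 225, 229 and 216 in plasma cells and 402, 336 and 374 in B cells, a log2 fold change of -0.69, whereas the one used read 3279, 3251 and 3559 and 1674, 2341 and 2247, a log2 fold change of 0.70. The lower-called probe set of Mrps10 read 47.5, 38.0 and 35.4 against 117, 97.6 and 93.0, close to background on some arrays, and the one used read 1664, 1782 and 1467 against 843, 1175 and 949. The lower-called probe sets of Mrps14 and Mrpl48 had log2 fold changes of -0.70 and -0.78, beside 0.95 and 0.80 for those used. Averaging all probe sets of a gene in place of choosing 1 gave 24 members called higher and 0 lower, beside 16.5% and 12.9% of all genes. It left Mrpl54 at 0.88 and Mrpl17 at 0.49, both still called higher, while Mrps14 at 0.23, Mrps10 at -0.17 and Mrpl51 at -0.039 were no longer called. Which transcripts these probe sets detect was not tested.

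**Figure D4:**
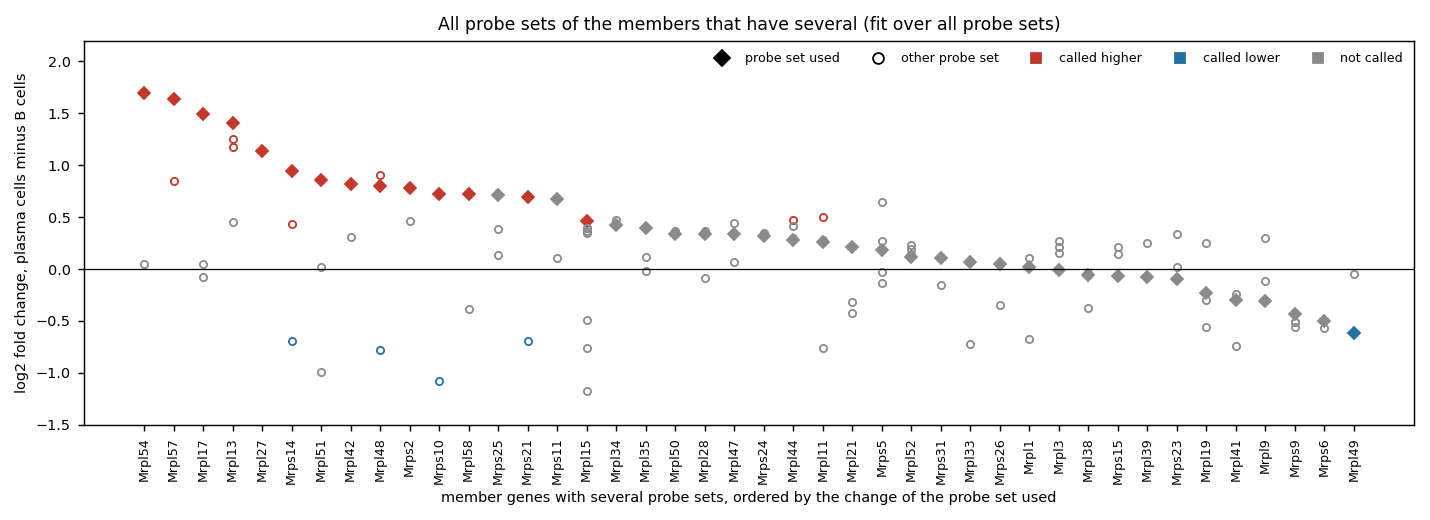
Log2 fold change, plasma cells minus B cells, of every probe set of the 42 members with several; diamonds are the probe set used and circles the others, and colour gives the call in the limma fit over all probe sets. The circles of Mrpl48, Mrps10, Mrps14 and Mrps21 called lower lie between -0.69 and -1.08, opposite to their diamonds.

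Genes that build, serve or use the mitoribosome were called in both directions. The lists below were drawn up by function, and their counts come from the same limma fit, where 17.6% of all genes were called higher and 12.3% lower. Without B cell array 1 these shares of all genes were 22.7% and 21.1%. Without any 1 of the other arrays they were 12.2% to 14.2% and 7.40% to 9.15%. After median centring they were 14.2% and 6.83%. Of 4 measured mitoribosomal proteins with other symbols, 0 were called higher by limma (0 also at an unadjusted p under 0.05) and 2 lower. Dap3, a GTP-binding protein of the small subunit, had 2244, 2270.5 and 2514 in plasma cells and 2935, 4075 and 3889 in B cells, a log2 fold change of -0.62 ± 0.17 (SE, limma adjusted p 0.0365). Ptcd3, a small-subunit protein with RNA-binding repeats, had 1388, 1322 and 1529 against 2024, 1986 and 2020.0, a log2 fold change of -0.51 ± 0.12 (SE, limma adjusted p 0.0213). For both genes all plasma cell arrays were below all B cell arrays. Gadd45gip1, a large-subunit protein, had 0.01 and was not called. The list had 0 called higher and 3 lower without B cell array 1. Without B cell array 2 or 3 or plasma cell array 1 or 2 neither Dap3 nor Ptcd3 was called, and Dap3 was not called without plasma cell array 3 either. After median centring neither gene was called.

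Of 14 factors of mitochondrial translation, 1 was called higher and 3 lower, with a median log2 fold change of -0.23. Tsfm, the exchange factor for the elongation factor Tufm, had 386, 295 and 345 against 109, 167 and 190.1, a log2 fold change of 1.09 ± 0.22 (SE, limma adjusted p 0.0147), while Tufm itself had -0.36 ± 0.18 (SE) and was not called. The call of Tsfm was lost without plasma cell array 1 (limma adjusted p 0.063) or 3 (0.054), and with the mean of its probe sets its change was 0.36 (0.181). Gfm2, which helps to recycle mitoribosomes, had 900.2, 873 and 817 against 1277, 1573 and 1641, a log2 fold change of -0.78 ± 0.14 (SE, limma adjusted p 0.00928). Mtfmt, which formylates the initiator transfer RNA, and Mtrf1l, a release factor, had -0.56 and -0.51, both called lower. The list had 1 called higher and 6 lower without B cell array 1. Without any 1 of the other arrays 1 gene was called lower, and neither Mtfmt nor Mtrf1l was. After median centring 0 were called lower by limma, and Gfm2 had an adjusted p of 0.147.

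Of 29 genes for assembly and ribosomal RNA modification, 4 were called higher and 3 lower, with a median of -0.02. These are 13.8% and 10.3% of the list, beside 17.6% and 12.3% of all genes. Mettl15, a methyltransferase of the small-subunit ribosomal RNA, had 1097, 1107 and 1053 against 261, 329.6 and 322, a log2 fold change of 1.79 ± 0.13 (SE, limma adjusted p 0.000331). Tfb1m, which methylates the same RNA, had 939, 1009.7 and 817 against 231, 413 and 341, a log2 fold change of 1.48 ± 0.23 (SE, limma adjusted p 0.00492), and Malsu1, an assembly factor of the large subunit, had 0.80 and was called higher, though not without plasma cell array 2. On the other side, Mrm1, a methyltransferase of the large-subunit ribosomal RNA, had -0.84 and Rpusd4, a pseudouridine synthase, had -0.76, both called lower. The counts were 6 higher and 7 lower without B cell array 1. Leaving out plasma cell array 2 gave 2 higher and leaving out each of the others gave 3, with 1 lower in every such case, and Rpusd4 was then not called. After median centring limma called 2 higher and 0 lower, and Mrm1 had an adjusted p of 0.0879.

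Of 23 genes that maintain, transcribe or process mitochondrial DNA and RNA, 4 were called higher and 7 lower, with a median of -0.22. Tfam, which packages mitochondrial DNA and starts its transcription, had 1405, 1438 and 1436 against 2367, 2665 and 2817, a log2 fold change of -0.86 ± 0.12 (SE, limma adjusted p 0.00326). Lrpprc, which stabilises mitochondrial messenger RNAs, had 646, 651 and 602 against 962, 1285 and 1145, a log2 fold change of -0.81 ± 0.15 (SE, limma adjusted p 0.00857). Mterf2, of the family of mitochondrial transcription termination factors, had -2.34 and Pnpt1, an RNA-degrading enzyme of mitochondria, -1.01, both called lower. Polrmt, the mitochondrial RNA polymerase, had 679.7, 612 and 609 against 447, 1074 and 974 and was not called. Called higher were Prorp, the nuclease of mitochondrial RNase P, at 1.02, and Grsf1, an RNA-binding protein of mitochondrial RNA granules, at 0.64. The call of Grsf1 was lost without probe sets whose type is marked x or s and after median centring (limma adjusted p up to 0.363). The counts were 5 higher and 10 lower without B cell array 1, and leaving out plasma cell array 1 or 2 gave 2 higher and 5 lower. After median centring 1 was called higher and 1 lower. Tfam, Lrpprc and Pnpt1 were then not called, at limma adjusted p-values of 0.0842, 0.128 and 0.0504.

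Regulators of nuclear genes for mitochondria were called lower in 4 of 13 cases and higher in 1. Nrf1, whose letters were searched in the promoters above, had 699, 654 and 771 in plasma cells and 1450.2, 1648 and 1751 in B cells, a log2 fold change of -1.17 ± 0.13 (SE, limma adjusted p 0.00154). Esrra, a nuclear receptor for genes of energy metabolism, had 215, 204 and 187 against 592, 627 and 774, a log2 fold change of -1.63 ± 0.15 (SE, limma adjusted p 0.00064). Both genes were lower on every plasma cell array. The coactivator gene Ppargc1a read 756, 180.5 and 189.5 on the B cell arrays and was called lower, below background on all plasma cell arrays, with B cell array 1 far above the others of its group. Gabpa, the DNA-binding subunit of GABP, had 1542, 1501 and 1334 against 1516, 1370.3 and 1478 and a log2 fold change of 0.00 ± 0.12 (SE). Gabpb2, for another subunit of GABP, was called lower, but not without any 1 array other than B cell array 1. Ppargc1b at -0.43, Pprc1 at -0.40 and Myc at -0.38 were not called, and the gene called higher, Esrrb at 0.63, was near background and was not called without any 1 array other than B cell array 1. Without B cell array 1, 7 of the 13 were called lower, and without any 1 of the other arrays 3 were.

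The respiratory chain, which uses the products of the mitoribosome, and the ribosome of the cytosol were set beside the members, with no test of the difference between lists. Of 82 measured genes for respiratory chain and ATP synthase subunits, 37 were called higher and 1 lower, with a median log2 fold change of 0.46, and without B cell array 1 the counts were 45 and 4. Without plasma cell array 1 or 2, 18 were called higher, without plasma cell array 3 22 and without B cell array 2 25, and after median centring 19. Ndufa1, a subunit of complex I, had 8345, 8711 and 8294 against 1419.6, 2088 and 1909.9, a log2 fold change of 2.23 ± 0.17 (SE, limma adjusted p 0.000362), and Cox6a2, a cytochrome oxidase subunit best known from muscle, had 2.93. Of 40 genes for cytosolic ribosomal proteins 0 were called in either direction by limma, with 0 higher and 2 lower at an unadjusted p under 0.05 and a median of -0.01. The counts were 0 higher and 1 lower without B cell array 1. Of those 40 genes 29 lay within 2-fold of the highest value on the arrays, where differences can be compressed, whereas 0 of the mitoribosomal members did.

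**Figure D5:**
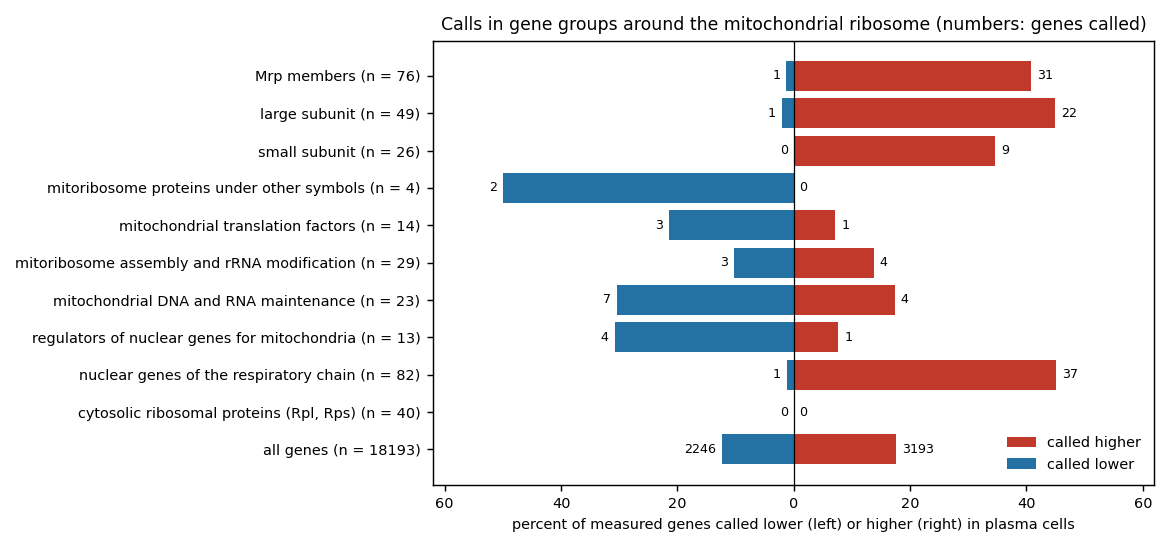
Percent of measured genes called higher (right) or lower (left) in plasma cells for the mitochondrial ribosomal protein genes, their subunits, related gene groups and all genes; numbers at the bars count the genes called. The members and the respiratory chain reach 40.8% and 45.1% called higher beside 17.6% of all genes, and the cytosolic ribosomal protein genes have no bar.

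Proliferation genes moved with the same contrast. Of 17 measured, 12 were called higher in plasma cells (13 without B cell array 1), among them Cdk1 and Mki67, and the summed level of the list was 31490.5 to 37014 on the plasma cell arrays and 12388 to 15180.0 on the B cell arrays. In these fits 17.6% and 22.7% of all genes were called higher. With the mean over probe sets 10 were called higher, beside 16.5% of all genes, and Bub1 and Top2a lost their calls. The list's median log2 fold change was then 0.93, in place of 1.85. The part of dividing cells in the members' changes was not tested.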

How the data were processed

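Total RNA of sorted cells was extracted with an RNAqueous micro kit, amplified (NuGEN Ovation V2) and biotin-labelled, per the labels' protocols, for 1-colour Affymetrix arrays. The deposited values are intensity values, 1 per probe set and array, on a linear scale. The authors' summarisation, background correction and normalization are not given in the sources used here. Every column was matched to a sample.

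Of 45101 probe sets, 64 were controls, 34945 had 1 gene symbol in the platform annotation of 2016, 932 had several and 9160 had none here. Symbols were matched to the RefSeq table of GRCm38.p6 for 34741 probe sets. Where a gene had several, the probe set of highest mean log2 value over the 6 arrays stood for it. Plasma cells were compared with B cells on log2(intensity + 16) with limma 3.58.1 (lmFit and eBayes) in R 4.3.3, with Benjamini-Hochberg adjustment over 18193 genes and a threshold of adjusted p = 0.05. The added constant understates the change of dim genes. SE is that of the fitted fold change, and SD is taken over 3 arrays. The background level of an array was the 95th percentile of 27 bacterial control probe sets, 23.0 to 41.8. The script was tested on simulated data with 50 changed genes for each fold, drawn from the brighter genes. Of each 50, 47 were called at 8-fold, 45 at 4-fold, 11 at 2-fold and 0 at 1.5-fold. Of 17993 unchanged genes 3 were called. Changes of 2-fold or less can therefore go uncalled. The median SE was 0.14 for members and 0.21 for all genes.

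The members and lists were chosen with earlier results of these data known. Named with values were the 10 most raised and the 10 least raised members by log2 fold change, each member called lower or with probe sets called in both directions, members fixed by name for their role (Mrpl1, Mrpl10, Mrpl11, Mrpl12, Mrps18a, Mrps18b, Mrps18c, Mrps12, Mrpl44, Mrpl45, Mrpl58, Mrps30, Mrps36), and of each related list up to 3 called genes in the main direction and 2 in the other, with 12 genes by name. Genes named outside that rule are marked, apart from partners of shared promoters, members that changed call without B cell array 1, and list members given with no value or only their log2 fold change. The labels do not say whether replicates are separate animals. By Xist and Kdm5d, B cell array 1 came from other mice than the other B cell arrays. For the remaining arrays of each group this is not known. The p-values therefore measure only the spread among these arrays, which may be technical in part, and the number of arrays limits the precision. Replicate numbers were checked for pairing: the deviations from group means of same-numbered arrays correlated at 0.048, 0.0047 and 0.046 over genes, so the numbers were not treated as pairs. Alternatives changed the added constant, a filter on dim genes, quantile normalization, median centring, the mean over probe sets, leaving out probe sets whose type is marked x or s, platform symbols, a variance trend, array weights, a replicate block and the leaving out of each array.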

Additional observations from a re-analysis of the deposited data

How the results depend on the processing

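The share of members called higher was above the share of all genes in each of the 17 alternatives, at 22.4% to 47.4% of members beside 12.2% to 26.6% of genes. Of the 31 members called higher, 15 were called under every alternative that kept their probe set: Mrpl54, Mrps28, Mrpl57, Mrpl17, Mrps34, Mrpl13, Mrps12, Mrpl27, Mrpl14, Mrpl55, Mrpl42, Mrpl36, Mrps2, Mrps18a and Mrps17. The cause of the following changes was not tested.

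Median centring, which moved the median of all genes from -0.06 to 0.06, gave 18 members called higher and 0 lower, 1243 genes called lower, and 2 assembly, 1 DNA and RNA maintenance, 0 regulator and 19 respiratory chain genes called higher. In that fit 14.2% of all genes were called higher and 6.83% lower. Called lower by limma were 0 translation factors, 0 assembly genes, 1 maintenance gene and 3 regulators. The mean over probe sets gave a member median of 0.19 and 0 members called lower, beside 12.9% of all genes. It gave 0 translation factors, 0 regulators and 1 cytosolic ribosomal gene called higher. It turned Mrpl15 to -0.057, Mrpl51 to -0.039 and Mrps10 to -0.17. Array weights gave 12 members called lower, a member median of 0.20, 4840 genes called higher, 4654 lower, and 7 assembly, 2 regulator and 1 cytosolic ribosomal genes called higher. A constant of 1 gave 0 members called lower and 0 regulators called higher, a constant of 64 gave 2 and 0, and a variance trend 2 and 0. In these fits 11.5%, 13.4% and 14.0% of all genes were called lower. Without x and s probe sets 1 cytosolic ribosomal gene was called higher.

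With the replicate number as a replicate block in a paired fit, 20 members were called higher and 0 lower, beside 13.5% and 9.15% of all genes. In that fit 0 translation factors, 2 DNA and RNA maintenance genes, 0 regulators and 23 respiratory chain genes were called higher. The replicate numbers did not pair the samples.

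Leaving out each array in turn gave 17 to 34 members called higher, 0 to 7 lower, a member median of 0.21 to 0.43, and 1347 to 3830 genes called lower. Of the lists, 0 to 1 translation factors, 2 to 6 assembly genes, 2 to 5 maintenance genes, 0 to 1 regulators and 18 to 45 respiratory chain genes were called higher. The fewest members called higher came without plasma cell array 2 (17), followed by plasma cell array 1 (18) and B cell array 3 (20), and the most without B cell array 1. Gadd45gip1 ranged from -0.31 without B cell array 1 to 0.18 without B cell array 3.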
